A study of Mus musculus with 15 samples.

Results

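Choroid plexus genes were followed in 15 RNA-seq libraries of mouse brainstem. The 8 genes Ttr, Kcnj13, Folr1, Clic6, Kl, Aqp1, Enpp2 and Slc4a5 were taken as markers of this tissue and found among the 57180 gene identifiers of each count table by their symbols, and all 8 were present in both tables. They were chosen by their measured levels in these same libraries, so their levels and differences are given as a description. The libraries came from 2 experiments on C57BL/6 brainstem. In the AMPK experiment, 3 libraries of genotype AMPK+/+ and 3 of genotype AMPK-/- (AMPKα2-/- in the study's methods) were made, with WT littermates as controls. The methods give postnatal days 1 to 5 as the age of the mice of the study, and the sample labels give no age. In the LMX1B experiment, prenatal brainstem gave 3 libraries each of LMX1B+/+, LMX1B+/- and LMX1B-/-. The embryonic age is not given in the sources used here, and LMX1B-/- is lethal before birth. No treatment is named for any library. Samples are not said to be separate animals, so p-values measure only the spread between these libraries.

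The choroid plexus is the folded secretory tissue of the brain ventricles, where a single layer of epithelial cells makes the cerebrospinal fluid. The hindbrain choroid plexus grows from the roof of the fourth ventricle, directly above the brainstem, so a brainstem dissection can carry more or less of it. Its epithelium moves water and ions through channels and transporters, and secretes binding proteins into the fluid. Some of its genes are also used by other cells: Ttr by liver and pancreatic islet cells, Enpp2 by oligodendrocytes, and Kl, Aqp1 and Slc4a5 by kidney. In bulk RNA, fewer choroid plexus cells and less RNA per cell cannot be told apart.

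Promoter sequence is shown for members that moved together between the prenatal libraries (Kcnj13 and Slc4a5) and for one that followed them weakly (Kl), so that the stretches can be compared. Of the 8 genes, 4 had an entry in the RefSeq promoter table of build GRCm38.p6. The 250 bases before the start of each gene are printed 5′ to 3′ on the gene's strand, in lower case, with a matched motif in capitals. They lie at chr1:87394730-87394979 on the minus strand for Kcnj13, chr6:83237125-83237374 on the plus strand for Slc4a5 and chr5:150952357-150952606 on the plus strand for Kl.
Kcnj13: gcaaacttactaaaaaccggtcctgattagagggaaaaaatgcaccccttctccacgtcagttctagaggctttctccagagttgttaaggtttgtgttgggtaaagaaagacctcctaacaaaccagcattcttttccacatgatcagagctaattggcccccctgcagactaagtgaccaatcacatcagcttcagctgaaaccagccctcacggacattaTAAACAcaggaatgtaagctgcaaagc
Slc4a5: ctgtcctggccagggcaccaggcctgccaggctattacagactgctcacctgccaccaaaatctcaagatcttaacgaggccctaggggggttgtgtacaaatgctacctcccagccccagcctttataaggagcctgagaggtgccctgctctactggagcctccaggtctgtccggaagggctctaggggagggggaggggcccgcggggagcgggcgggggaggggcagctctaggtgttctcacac
Kl: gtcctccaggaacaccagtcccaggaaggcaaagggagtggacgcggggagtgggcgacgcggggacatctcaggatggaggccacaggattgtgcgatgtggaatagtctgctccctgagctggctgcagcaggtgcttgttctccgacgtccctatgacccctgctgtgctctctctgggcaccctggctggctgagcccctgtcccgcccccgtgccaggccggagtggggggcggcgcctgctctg
Both strands of these stretches and of the Aqp1 promoter were searched for TAATCC, the core bound by homeodomain proteins of the bicoid type such as OTX2. They were also searched for TAAACA, a forkhead core. The last motif was TAATTA, a homeodomain core. The only match was the forkhead core in Kcnj13, at bases 27 to 22 before the start. Of 32851 promoters in the table, 12.0% held the forkhead core, 6.25% the bicoid core and 4.84% the homeodomain core. The G and C content was 45.2% in Kcnj13, 62.8% in Slc4a5 and 66.8% in Kl. A match of letters is a description of the sequence and not a binding site.

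Total counts lay between 14975095 and 17384171 in 4 AMPK libraries, while AMPK+/+ 2 held 291212 and AMPK-/- 3 held 335986. In these 2 shallow libraries a gene with 0 counts could be present at up to 9.96 and 9.04 CPM (the unit of level, a count divided by the TMM-scaled library total, where 3 counts are taken as the limit that a count of 0 allows), against 0.175 to 0.198 CPM in the other 4 and 0.0675 to 0.108 CPM in the LMX1B libraries. These limits cover counting error only. The LMX1B libraries held 28833130 to 37441679 counts. Prkaa2, which encodes the targeted AMPKα2 subunit, was at 21.9, 26.5 and 29.6 CPM in AMPK+/+ and at 25.3, 22.2 and 12.1 CPM in AMPK-/- (log2 fold change −0.20, SE 0.23, edgeR quasi-likelihood adjusted p = 0.659). The 26.5 and 12.1 CPM come from the 2 shallow libraries and rest on 8 and 4 counts. Prkaa2 was thus not clearly lower, but counts over a whole gene do not test the genotype. The study shows genotyping PCR of AMPKα2-/- and WT mice. The latter libraries are called by their label, as the libraries labelled AMPK-/-. Lmx1b was at 9.72 to 22.5 CPM in LMX1B+/+, 11.9 to 30.5 CPM in the libraries labelled LMX1B+/- and 0.847 to 1.45 CPM in LMX1B-/- (LMX1B-/- against LMX1B+/+: −3.82, SE 0.41, adjusted p = 0.00287). In the AMPK table, 90.7% of identifiers, 51884 in number, were matched to a symbol, and the same identifiers stand in the LMX1B table.

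Ttr encodes transthyretin, the thyroid hormone carrier that choroid plexus epithelium secretes into the cerebrospinal fluid. In AMPK+/+ 1 to 3 it was at 1.84, 6.64 and 5.18 CPM, from 28, 2 and 89 counts. In the libraries labelled AMPK-/- it was at 52.0, 26.5 and 112 CPM, from 789, 410 and 37 counts. The groups did not overlap, as for 13.9% of all tested genes that were higher without overlap, and the log2 fold change was 3.80 (SE 0.43), a 14.0-fold difference. Leaving out each library in turn gave 3.22 to 4.62, and leaving out both shallow libraries gave 3.47. In the prenatal libraries Ttr was far more abundant and far more uneven. It was at 335, 198 and 289 CPM in LMX1B+/+, at 63.3, 1509 and 880 CPM in the libraries labelled LMX1B+/-, and at 1200, 682 and 92.3 CPM in LMX1B-/-. The lowest and the highest of the 9 prenatal libraries, LMX1B+/- 1 and LMX1B+/- 2, carried the same genotype label and differed 23.8-fold.

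Kcnj13 encodes Kir7.1, an inwardly rectifying potassium channel of the apical membrane. It had 0, 0 and 3 counts in AMPK+/+ 1 to 3 and 23, 21 and 2 counts in the libraries labelled AMPK-/-. In CPM these were 0, 0 and 0.175 against 1.52, 1.36 and 6.03, where the last value rests on 2 counts. The summed counts, 46 against 3, gave a ratio of 16.2 (exact 95% counting interval 5.20 to 81.4), scaled by library totals. The fitted log2 fold change, which depends on the prior count, was 3.98 (SE 0.86). In the prenatal libraries Kcnj13 was at 1.44, 0.519 and 0.968 CPM in LMX1B+/+, 0.289, 2.93 and 2.10 CPM in those labelled LMX1B+/-, and 3.71, 1.19 and 0.503 CPM in LMX1B-/-. The spread within both mutant groups covered the whole LMX1B+/+ range. Kcnj13 overlaps Gigyf2 on the opposite strand in the GENCODE M21 annotation, and whether counting used strand is not given in the sources used here. Gigyf2 was at 42.3 to 56.4 CPM in AMPK+/+ and at 47.2 to 57.3 CPM in the libraries labelled AMPK-/-.

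Slc4a5 encodes NBCe2, a sodium bicarbonate cotransporter of the apical membrane. In the AMPK experiment it was at 2.82, 3.32 and 3.26 CPM in AMPK+/+ and 2.04, 2.13 and 9.04 CPM in those labelled AMPK-/-, and the groups overlapped (log2 fold change −0.36, SE 0.48). The 9.04 CPM rest on 3 counts. It had the widest prenatal range of the 8 genes, 59.1-fold. LMX1B+/+ libraries held 4.85, 2.39 and 3.08 CPM, those labelled LMX1B+/- held 0.434, 25.6 and 9.23 CPM, and LMX1B-/- held 18.1, 7.45 and 1.62 CPM.

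Clic6 encodes a chloride intracellular channel protein that is abundant in choroid plexus epithelium. It was at 1.38, 0 and 2.97 CPM in AMPK+/+ and 3.03, 2.33 and 6.03 CPM in those labelled AMPK-/-, with 0 and 2 counts in the 2 shallow libraries (log2 fold change 0.43, SE 0.50). The deep libraries of both labels overlapped. In prenatal tissue, Clic6 was at 8.22, 6.64 and 6.14 CPM in LMX1B+/+, at 1.45, 60.1 and 20.4 CPM in the libraries labelled LMX1B+/-, and at 36.2, 20.7 and 3.36 CPM in LMX1B-/-, a 41.6-fold range over the 9 libraries.

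Aqp1 encodes aquaporin 1, the water channel of the apical membrane. In the AMPK experiment it had 7, 0 and 48 counts in AMPK+/+ against 1, 3 and 0 counts in the libraries labelled AMPK-/-, or 0.460, 0 and 2.79 CPM against 0.0659, 0.194 and 0 CPM. The ratio of summed counts was 0.0768 (exact 95% counting interval 0.0202 to 0.208), and 48 of the 55 counts of AMPK+/+ came from AMPK+/+ 3. Prenatal libraries held 7.10, 5.40 and 5.09 CPM in LMX1B+/+, 1.92, 40.0 and 17.5 CPM in those labelled LMX1B+/-, and 26.5, 12.2 and 2.07 CPM in LMX1B-/-. LMX1B+/- 2 was again highest and LMX1B+/- 1 lowest.

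Folr1 encodes folate receptor alpha, which carries folate across the epithelium. It had 5, 0 and 4 counts in AMPK+/+ and 4, 11 and 1 counts in the libraries labelled AMPK-/-, a ratio of 1.88 (exact 95% counting interval 0.781 to 4.82) that was not distinguishable from no difference at this depth. In the prenatal libraries it was at 2.14, 3.01 and 1.96 CPM in LMX1B+/+, at 1.01, 16.9 and 12.5 CPM in those labelled LMX1B+/-, and at 14.2, 4.54 and 1.11 CPM in LMX1B-/-. These values followed the order of the other transport genes.

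Kl encodes klotho, the coreceptor of FGF23, which is made in kidney and choroid plexus. AMPK+/+ libraries held 7.75, 3.32 and 6.23 CPM and those labelled AMPK-/- held 4.61, 5.49 and 6.03 CPM, with 1 and 2 counts in the 2 shallow libraries (log2 fold change −0.41, SE 0.33). Prenatal Kl was at 4.32, 2.84 and 3.78 CPM in LMX1B+/+, at 3.04, 4.54 and 2.10 CPM in the libraries labelled LMX1B+/-, and at 5.29, 3.38 and 2.38 CPM in LMX1B-/-, a 2.52-fold range that was narrower than that of the 6 members other than Enpp2. In LMX1B+/- 3, where the Ttr level was among the 3 highest, Kl had its lowest value.

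Enpp2 encodes autotaxin, a secreted enzyme that makes lysophosphatidic acid and is also made by oligodendrocytes. It was at 469, 232 and 364 CPM in AMPK+/+ and 491, 388 and 407 CPM in those labelled AMPK-/- (log2 fold change 0.23, SE 0.19). The groups overlapped. Prenatal libraries held 62.9, 65.9 and 58.1 CPM in LMX1B+/+, 75.6, 106 and 76.2 CPM in those labelled LMX1B+/-, and 115, 81.6 and 52.8 CPM in LMX1B-/-. All 3 libraries labelled LMX1B+/- lay above all 3 LMX1B+/+ libraries, where 23.4% of all tested genes were higher without overlap. The sum of 12 oligodendrocyte genes, led by Mbp in the AMPK experiment, was 14200 to 24531 CPM there and 218 to 399 CPM in the prenatal libraries. The part of these cells in the Enpp2 level was not tested.

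**Figure D1:**
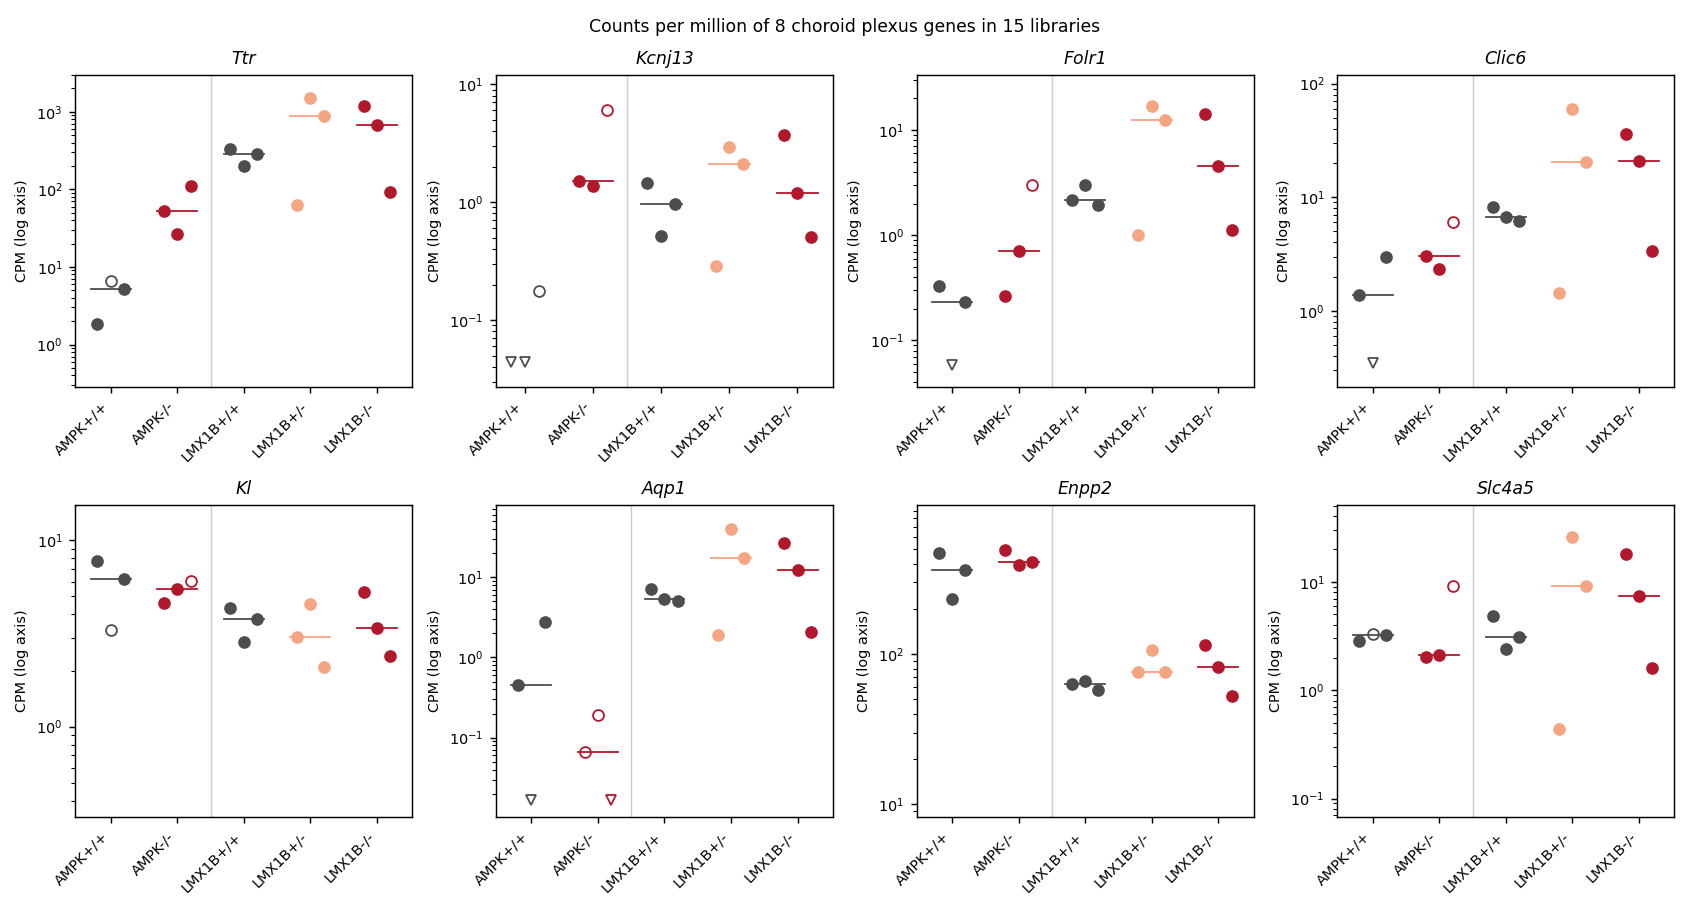
Level of each of the 8 genes in CPM (log axis, a separate scale for each gene) in every library, by genotype label; the line marks the group median, open symbols rest on 3 counts or fewer, and triangles at the bottom mark libraries with 0 counts. Ttr was at 1.84 to 6.64 CPM in AMPK+/+ and 26.5 to 112 CPM in the libraries labelled AMPK-/-, and the prenatal libraries of one label lay as far apart as 63.3 and 1509 CPM.

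The abundance of the 8 genes relative to each other differed between the experiments. On the authors' RPKM scale, which divides by gene length, Ttr had a median level of 302 RPKM in the 9 prenatal libraries and 12.4 RPKM in the 4 deeper AMPK libraries. Enpp2 had the opposite order, with median levels of 11.8 and 76.2 RPKM. The other 6 genes had median levels of 0.375 RPKM (Kl) to 2.61 RPKM (Aqp1) in the prenatal libraries and 0.122 RPKM (Aqp1) to 0.642 RPKM (Clic6) in the deeper AMPK libraries. The prenatal order by median was Kl, Slc4a5, Kcnj13, Folr1, Clic6 and Aqp1 from the lowest, and the ranges of every pair of neighbours overlapped. In the deeper AMPK libraries it was Aqp1, Folr1, Slc4a5, Kcnj13, Kl and Clic6, where only Folr1 (up to 0.275 RPKM) and Slc4a5 (from 0.327 RPKM) did not overlap as neighbours. The tables were normalized separately and the animals differed in age, and no test was made between them.

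Of the counts on the 8 genes, Ttr took 43.0% to 86.3% in the prenatal libraries and 0.380% to 9.37% in the 4 deeper AMPK libraries, where Enpp2 took 88.6% to 97.0%. Within single libraries, Ttr stood in a narrow ratio to Aqp1 in prenatal tissue, 33.0 to 56.8 Ttr counts per Aqp1 count, although Ttr varied 23.8-fold and Aqp1 20.9-fold between these libraries. The ratio to Clic6 was 25.1 to 47.0. In AMPK+/+ 1 and 3 there were 1.33 and 1.75 Ttr counts per Clic6 count, and in AMPK-/- 1 and 2 there were 17.2 and 11.4. The ratio to Slc4a5 was 0.651 and 1.59 in the same AMPK+/+ libraries, 25.5 and 12.4 in AMPK-/- 1 and 2, and 57.1 to 146 in the prenatal libraries. The AMPK libraries thus lay below the prenatal range for both ratios, and those labelled AMPK-/- lay between. For Aqp1, with 1 and 3 counts in AMPK-/- 1 and 2, the ratios there were 789 and 137, above the prenatal range.

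**Figure D2:**
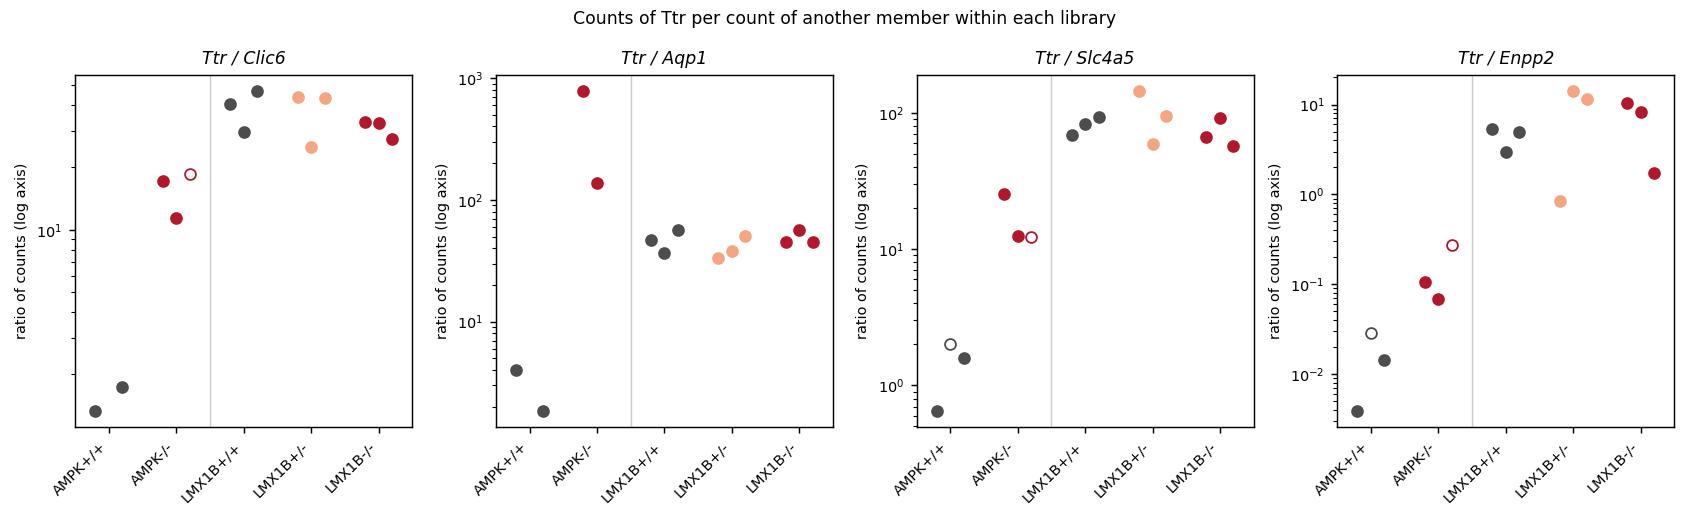
Counts of Ttr per count of Clic6, Aqp1, Slc4a5 and Enpp2 within each library (log axes), with open symbols for the 2 shallow libraries and no point where the denominator was 0. The prenatal ratios to Aqp1 stayed between 33.0 and 56.8, while the AMPK ratios to Clic6 were 1.33 and 1.75 in AMPK+/+ 1 and 3 and 17.2 and 11.4 in AMPK-/- 1 and 2.

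The comparison of the libraries labelled AMPK-/- with AMPK+/+ asks how the brainstem transcriptome depends on AMPK. Of the 8 genes, 6 passed the filter on low counts, and 2 of these, Ttr and Kcnj13, had an adjusted p under 0.05, both higher, where 8.94% of all 17397 tested genes were called and 3.77% were called higher. The median log2 fold change of the 6 was 0.33, against −0.01 over all tested genes, and it was 0.22 without AMPK+/+ 2, 0.49 without AMPK-/- 2 and 0.67 without AMPK+/+ 3. Folr1 and Aqp1 did not pass the filter. Without the 2 shallow libraries, 0 of the 8 and only 6 of all genes were past the threshold, with log2 fold changes of 3.47 for Ttr and 3.86 for Kcnj13.

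Other choroid plexus genes, 31 of a list of 32 that matched a symbol, were tested in the same fit. Of these, 18 passed the filter, 14 had a positive log2 fold change, and the median was 0.25. The median was 0.08 without AMPK-/- 1, 0.16 without AMPK+/+ 1, 0.39 without AMPK-/- 2 and 0.52 without AMPK+/+ 3. Of the 18, 2 were called, where 8.94% of all tested genes were, and both rose in the libraries labelled AMPK-/-. Slc13a4, a sulfate transporter, was at 26.1, 15.1 and 18.1 CPM there and at 4.46, 3.32 and 9.14 CPM in AMPK+/+ (log2 fold change 1.61, SE 0.32, edgeR adjusted p = 0.00372), and was called with each library left out. Slc22a8, an organic anion transporter, was at 24.6, 10.3 and 21.1 CPM against 7.09, 9.96 and 7.57 CPM (1.25, SE 0.32, edgeR adjusted p = 0.0178). That call ended without AMPK-/- 1 (0.71, edgeR adjusted p = 0.382) and without AMPK-/- 3 (1.25, edgeR adjusted p = 0.0539). In the shallow libraries AMPK-/- 3 and AMPK+/+ 2, Slc13a4 had 6 and 1 counts and Slc22a8 had 7 and 3. Without both shallow libraries the edgeR adjusted p was 0.130 for Slc13a4 and 0.164 for Slc22a8. Both genes are also known from the cells of the meninges.

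Kcne2, Otx2 and Lmx1a had at most 20 counts in any AMPK library. Kcne2, a potassium channel subunit, was at 0.116 and 0.263 CPM in the deeper AMPK+/+ libraries and at 0.132 and 0.452 CPM in AMPK-/- 1 and 2. Otx2, a homeodomain factor of the choroid plexus, was at 0.0657 and 1.16 CPM against 0.395 and 0.258 CPM. Lmx1a, a factor of the roof plate, was at 0 and 0.990 CPM against 0.329 and 0 CPM. None of the 3 passed the filter. Msx1, another roof plate factor, had a log2 fold change of 0.26 (SE 0.48, edgeR adjusted p = 0.790), and Prlr, the prolactin receptor, one of 0.08 (SE 0.29, edgeR adjusted p = 0.902). Prlr was at 9.45 to 19.9 CPM in AMPK+/+ and at 6.03 to 12.9 CPM in the libraries labelled AMPK-/-. The 19.9 and 6.03 CPM rest on 6 and 2 counts.

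Some markers of other cells also moved with the AMPK label, where 8.94% of all 17397 tested genes were called and 3.77% were called higher. Of 15 genes of ependyma and cilia, led by Foxj1 and Rsph1, 13 were tested and 4 rose (Ccdc153, Rarres2, Rsph1 and Cfap126), the median log2 fold change was 1.11, and the summed level was 51.2 to 78.4 CPM against 23.2 to 46.0 CPM. Of 12 meninges genes, led by Dcn and Col1a2, 5 rose and 0 fell, and the sums overlapped, at 244 to 435 CPM against 130 to 319 CPM. Dcn was at 46.2 to 95.8 CPM against 10.1 to 40.0 CPM. Col1a2 overlapped, at 32.0 to 47.1 CPM against 33.2 to 78.6 CPM. The share of counts on mitochondrially encoded genes was 20.0% to 21.7% in the libraries labelled AMPK-/- and 10.4% to 13.9% in AMPK+/+. The part of these in the Ttr and Slc13a4 values was not tested.

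Among sources of Ttr outside the brain, liver genes summed to 0 to 2.64 CPM over the AMPK libraries, with Fgb and Fga at 0 in all 6. Of the islet genes, Ins1, Ins2, Iapp and Pdx1 were at 0 in all 6 libraries, while Gcg, the glucagon gene, which is also used by neurons of the caudal brainstem, was called higher: 0, 0 and 0.0582 CPM in AMPK+/+ against 5.40 to 12.1 CPM. Skeletal muscle genes, 7 of 7 lower, were high in AMPK+/+ 3 alone, at a sum of 1311 CPM against 9.04 to 18.4 CPM elsewhere, and this library also held 48 of the 55 AMPK+/+ counts of Aqp1. Of 12 oligodendrocyte genes, 0 were called (edgeR), of 10 endothelial genes 0, of 7 tested roof plate genes 0, and of 5 tested erythroid genes 2 rose. Over all 17397 tested genes, 3.77% were called higher and 900 genes were called lower. The part of liver, islet or muscle cells in the Ttr and Aqp1 values was not tested.

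**Figure D3:**
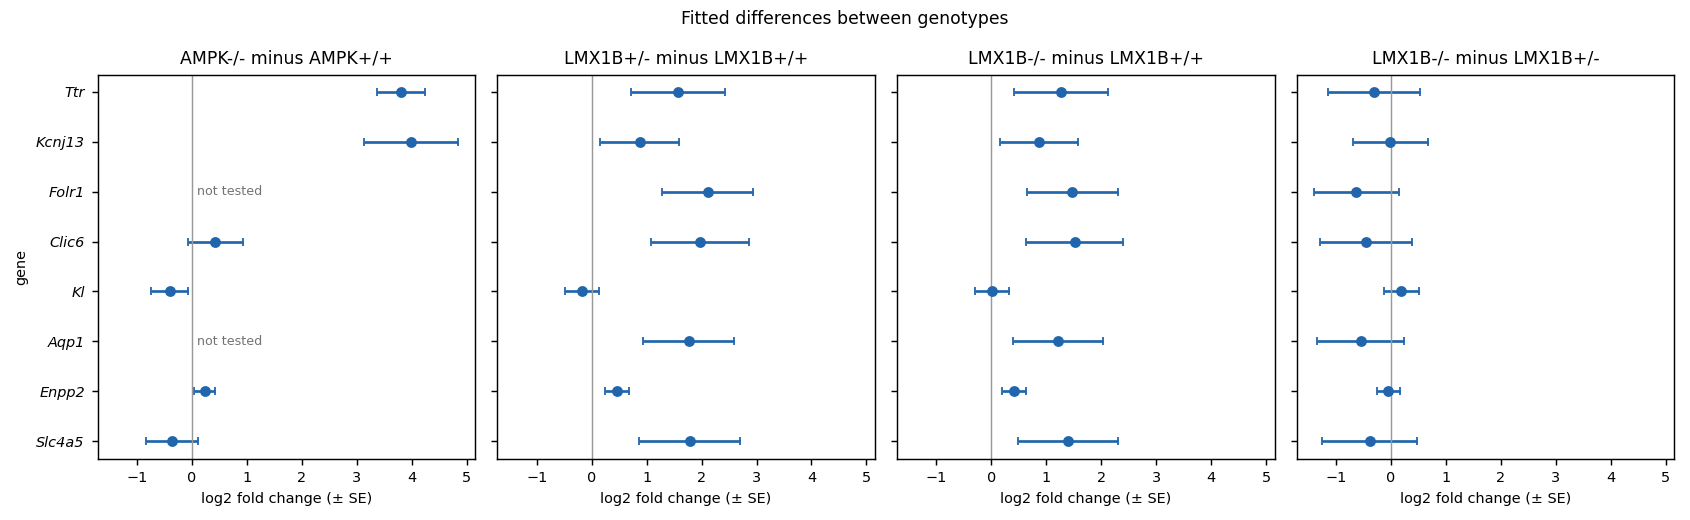
Fitted log2 fold change of each member with its standard error (bars) in the AMPK comparison and the 3 LMX1B comparisons, with Folr1 and Aqp1 marked as not tested in the first. Ttr (3.80) and Kcnj13 (3.98) stood apart from the other 4 tested members in the AMPK comparison, which lay between −0.41 and 0.43, while the prenatal values carried standard errors of up to 0.92 for Slc4a5.

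The LMX1B comparisons ask how prenatal brainstem depends on LMX1B, a LIM homeodomain factor. All 8 genes passed the filter. Between LMX1B-/- and LMX1B+/+, 0 of 8 were past the threshold in edgeR's test and 0 in DESeq2, where 0.0184% of 21729 tested genes were called (4 genes, with 1757 at an unadjusted p under 0.05). None of the 8 had an unadjusted p under 0.05 in edgeR and 1 had in DESeq2. The median log2 fold change of the 8 was 1.24, against 0.01 over all tested genes, and single values ran from 0.01 for Kl to 1.52 (SE 0.88) for Clic6. Without LMX1B-/- 1 this median was 0.26. Between the libraries labelled LMX1B+/- and LMX1B+/+, 0 of 8 were past the threshold in edgeR and 0 in DESeq2, where edgeR called 36.7% of all tested genes. At an unadjusted p under 0.05 there were 2 and 1 of the 8, against 10015 and 9702 of all 21729 genes. The median was 1.67, with values from −0.18 (SE 0.31) for Kl to 2.11 (SE 0.83) for Folr1, and it was 0.61 without LMX1B+/- 2. Between LMX1B-/- and the libraries labelled LMX1B+/-, 0 of 8 were past the threshold by either tool, where edgeR called 25.5% of all tested genes. At an unadjusted p under 0.05 there were 0 of the 8, against 8000 genes in edgeR and 7721 in DESeq2. The median of the 8 was −0.35. Its sign depended on single libraries: it was −1.14 without LMX1B-/- 1, −0.91 without LMX1B+/- 1, 0.15 without LMX1B-/- 3 and 0.45 without LMX1B+/- 2. These comparisons share libraries.

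The count in the second comparison changed without library LMX1B+/- 1, and also with some other libraries left out and in other settings. Without LMX1B+/- 1, 5 of the 8 genes (Ttr, Folr1, Clic6, Aqp1 and Slc4a5) were past the threshold, as were 7319 of 22298 genes tested. The log2 fold changes of the 5 were 2.11 to 2.63 in this contrast. With all libraries, the same 5 genes had 1.58 to 2.11 and standard errors of 0.82 to 0.92. When LMX1B-/- 1 or LMX1B-/- 3 was left out of the shared fit, 2 of the 8 were past the threshold. Over all genes tested, 7326 of 22468 and 7542 of 22293 were called in these fits.

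The larger pattern lay between libraries of one label. For Ttr, Kcnj13, Folr1, Clic6, Aqp1 and Slc4a5, LMX1B+/- 1 was the lowest of the 9 libraries and LMX1B-/- 3 the next lowest. LMX1B+/- 2 was the highest for 5 of the 6 and LMX1B-/- 1 for Kcnj13. The 3 LMX1B+/+ libraries lay between these for all 6. The mean of the 8 genes' centred log2 CPM was −1.81 in LMX1B+/- 1 and −1.36 in LMX1B-/- 3, −0.62 to −0.13 in LMX1B+/+, and 0.44, 0.77, 1.48 and 1.70 in LMX1B-/- 2, LMX1B+/- 3, LMX1B-/- 1 and LMX1B+/- 2.

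The SD within genotypes on the log2 scale was 1.31 (Kcnj13) to 2.00 (Slc4a5) for these 6 genes, 0.49 for Kl (larger than in 86.8% of all tested genes) and 0.36 for Enpp2, with a median of 1.67 over the 8, 0.76 over the 31 other choroid plexus genes and 0.20 over all tested genes. Across the 9 libraries, which share genotypes in groups of 3, the log2 CPM of each gene was correlated with the mean of the other 7 as a description. Pearson's r was 0.992 for Aqp1, 0.986 for Ttr, 0.984 for Clic6, 0.977 for Slc4a5, 0.952 for Kcnj13 and 0.943 for Folr1, and was lower for Enpp2 (0.761) and Kl (0.472).

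**Figure D4:**
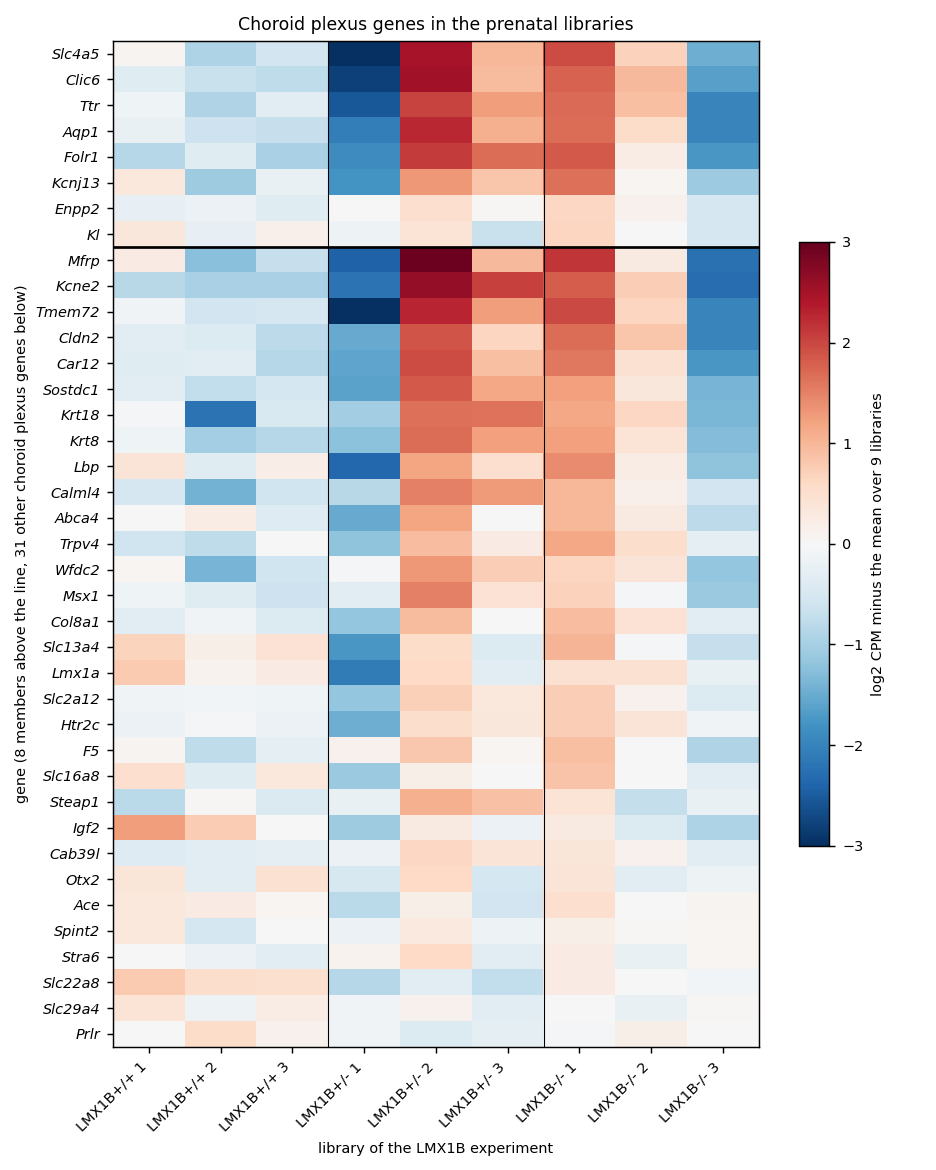
Log2 CPM of the 8 members (above the line) and the 31 other choroid plexus genes (below, ordered by how steeply they followed the members) in the 9 prenatal libraries, each gene centred on its mean, with the colour scale ending at 3 on either side. LMX1B+/- 1 and LMX1B-/- 3 were low and LMX1B+/- 2 and LMX1B-/- 1 high for 6 members and for genes such as Tmem72, Mfrp and Kcne2, while Kl, Enpp2, Slc22a8 and Prlr varied less.

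The other choroid plexus genes shared this order in part. With the mean of the members' profile, 11 of 31 (35.5%) had r above 0.9, against 82 of 21721 (0.378%) of all tested genes outside the members. The members and this list were chosen with earlier results of these data known, so the shares are a description and not a test. The 5 genes with the highest r outside the members were Tmem72, a membrane protein (0.992), Mfrp, a frizzled-related membrane protein (0.986), Sostdc1, a secreted antagonist of BMP and WNT signals (0.985), Car12, a carbonic anhydrase (0.982), and Cd82, a tetraspanin that was not on the list (0.981). Tmem72 was at 0.542 CPM in LMX1B+/- 1 and 23.7 CPM in LMX1B+/- 2. Cd82 had a far narrower range, 5.17 to 11.0 CPM. Slc22a8 (r = 0.04), Slc29a4 (0.00), Prlr (−0.41) and Otx2 (0.48) were among several listed genes that did not share the order. The median r over the 31 was 0.858. Each of these values is over the same 9 libraries.

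In the tests of the 31 other genes, 0 were called between LMX1B-/- and LMX1B+/+ by edgeR and 0 by DESeq2, with 4 at an unadjusted p under 0.05 by each tool. Between the libraries labelled LMX1B+/- and LMX1B+/+, 5 were called, where 36.7% of all tested genes were. Calml4, a calmodulin-like protein, rose (log2 fold change 1.78, edgeR adjusted p = 0.0160), from 1.04 to 2.00 CPM in LMX1B+/+ to 1.59, 8.28 and 7.04 CPM. Kcne2 rose (2.77, edgeR adjusted p = 0.0322), from 3.47 to 3.86 CPM to 1.45, 43.1 and 29.0 CPM. Its value in LMX1B+/- 1 was below every LMX1B+/+ library. Cab39l, an adaptor of the kinase LKB1, rose less (0.65, edgeR adjusted p = 0.0170). Slc22a8 fell, from 15.2 to 18.7 CPM to 6.00, 8.57 and 6.53 CPM (−1.22, edgeR adjusted p = 8.67e-05), and Prlr fell (−0.51, edgeR adjusted p = 0.0267). Of the 5 calls, that of Slc22a8 held with each library left out. Without LMX1B+/- 1 there were 17 calls, 15 of them higher, and without LMX1B+/- 3 there was 1. Over all genes tested, 7319 of 22298 and 5911 of 22323 were called in these fits. Without LMX1B+/- 2 there were 6 calls, 0 of them higher, where 8405 of 22566 genes tested were called. The edgeR adjusted p without this library was 0.0598 for Calml4, 0.0610 for Cab39l, 0.110 for Kcne2 and 0.0887 for Prlr. The Kcne2 call also ended in DESeq2 (adjusted p = 0.0520), with the replicate number as a block (edgeR adjusted p = 0.0569) and without any 1 of the LMX1B+/+ libraries (edgeR adjusted p = 0.0814 to 0.0855). Leaving out 1 LMX1B+/+ library also ended the calls of Calml4 (replicate 2, edgeR adjusted p = 0.0593), Cab39l (replicate 1, edgeR adjusted p = 0.0541) and Prlr (replicate 2, edgeR adjusted p = 0.119). Between LMX1B-/- and the libraries labelled LMX1B+/-, Slc22a8 was the only call (0.68, edgeR adjusted p = 0.00718), where 25.5% of all tested genes were called.

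With all libraries, Otx2, Lmx1a and Msx1, patterning factors of the choroid plexus and roof plate, did not pass the test in any of the 3 comparisons. Otx2 was at 17.1 to 29.7 CPM in LMX1B+/+, 15.1 to 32.7 CPM in the libraries labelled LMX1B+/- and 17.3 to 28.5 CPM in LMX1B-/- (LMX1B-/- against LMX1B+/+: −0.20, SE 0.29, edgeR adjusted p = 0.870). Lmx1a, the paralog of Lmx1b, was at 4.19 to 6.78, 0.868 to 5.93 and 3.31 to 5.39 CPM (−0.15, SE 0.44, edgeR adjusted p = 0.942). Msx1 was at 4.66 to 6.50, 5.71 to 20.4 and 3.26 to 11.6 CPM (0.38, SE 0.44, edgeR adjusted p = 0.833). Between the libraries labelled LMX1B+/- and LMX1B+/+, the log2 fold change was −0.24 (SE 0.29, edgeR adjusted p = 0.548) for Otx2, −0.65 (SE 0.45, edgeR adjusted p = 0.279) for Lmx1a and 1.11 (SE 0.44, edgeR adjusted p = 0.0638) for Msx1. In this contrast Msx1 was called without LMX1B+/- 1 (1.42, edgeR adjusted p = 0.0133), without LMX1B-/- 1 (0.0432), without LMX1B-/- 3 (0.0318) and with only the genotypes compared (0.0264). Without LMX1B+/- 2, Lmx1a (−1.34, edgeR adjusted p = 0.0239) and Otx2 (−0.69, edgeR adjusted p = 0.0447) were called lower. Without a filter on low counts, Msx1 (edgeR adjusted p = 1.56e-08) and Lmx1a (edgeR adjusted p = 0.0134) were called. Of the 11 roof plate genes, led by Zic1, 0 were called in any comparison with all libraries. Over all tested genes, 0.0184% were called for LMX1B-/- against LMX1B+/+, 36.7% for LMX1B+/- against LMX1B+/+ and 25.5% for LMX1B-/- against LMX1B+/-. The roof plate sum was 215 to 318 CPM over the 9 libraries and was mostly Zic1, at 180 to 277 CPM.

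Markers of neighbouring cells moved only in part with the members. The ependyma and cilia sum was lowest in LMX1B+/- 1 (35.1 CPM) and highest in LMX1B+/- 2 (87.6 CPM), but was 53.4 CPM in LMX1B-/- 3, above all LMX1B+/+ libraries (41.9 to 48.5 CPM). The meninges sum was 317 CPM in LMX1B+/- 1, 333 CPM in LMX1B-/- 3, 669 CPM in LMX1B+/- 2 and 602 CPM in LMX1B-/- 1. In LMX1B+/+ it was 502 to 610 CPM, above LMX1B+/- 3 (413 CPM) and LMX1B-/- 2 (400 CPM). Most members had the opposite order between these libraries. Liver genes summed to 1.49 to 2.37 CPM and Ins1 and Pdx1 were at 0 in all 9 libraries, while Ttr ran from 63.3 to 1509 CPM. The erythroid sum, led by Hbb-bs, separated the labels, at 3547 to 7509 CPM in the libraries labelled LMX1B+/- against 509 to 1250 CPM in LMX1B+/+, with 7 of 7 genes higher. It was 6087 CPM in LMX1B+/- 1, where most members were lowest. In the same contrast, 8 of 12 oligodendrocyte genes and 6 of 12 meninges genes were called lower and 0 higher. Over all 21729 genes tested in this contrast, 36.7% were called, 4225 higher and 3752 lower. The share of counts on mitochondrially encoded genes was 9.58% to 14.7% in the libraries labelled LMX1B+/-, 5.57% to 6.74% in LMX1B+/+ and 7.23% to 7.98% in LMX1B-/-. The most abundant gene, ENSMUSG00000119584, took 22.7% of counts in LMX1B+/- 1, 14.0% in LMX1B-/- 3 and 17.3% in LMX1B+/- 2. In LMX1B+/+ 1 to 3 it took 21.9%, 18.4% and 4.56%. The shares of LMX1B+/+ 3 and LMX1B+/- 1 were the lowest and the highest of the 9 libraries. LMX1B+/+ 3 also had the highest TMM factor of these libraries, 1.24. The part of any of these in the members' order or in the calls between these labels was not tested.

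**Figure D5:**
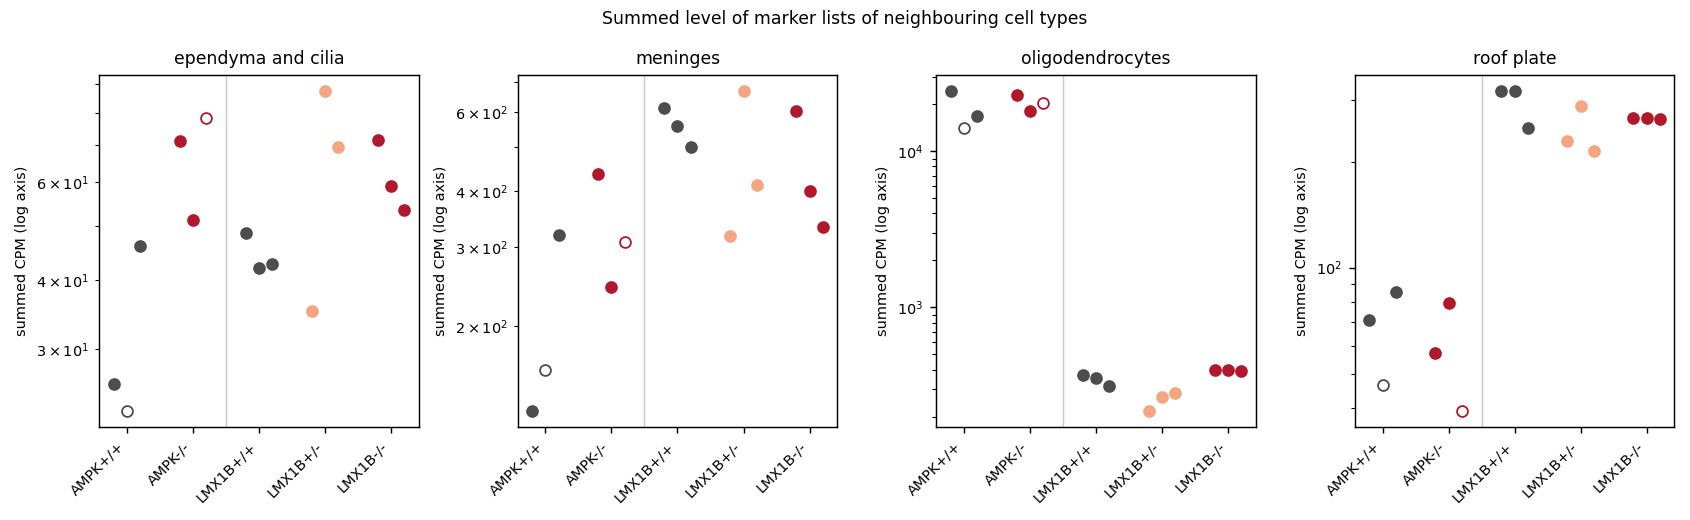
Summed CPM (log axes) of marker lists of ependyma and cilia, meninges, oligodendrocytes and roof plate in each library by genotype label, with open symbols for the 2 shallow libraries. The ependyma and meninges sums were highest in LMX1B+/- 2 among the prenatal libraries (87.6 and 669 CPM). The oligodendrocyte sum was 14200 to 24531 CPM in the AMPK libraries against 218 to 399 CPM prenatally. The prenatal roof plate sum was 215 to 318 CPM and was mostly Zic1, at 180 to 277 CPM.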

How the data were processed

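RNA-seq libraries of polyA RNA from mouse brainstem (TRIzol, NEXTflex Rapid Directional qRNA-Seq kit, Illumina HiSeq) were analysed. The authors deposited whole-number counts per gene and RPKM per gene; their processing notes name HISAT2 and GRCm39, and the counter, annotation, strand setting and use of molecular indexes are not given in the sources used here. Columns were matched to samples by name, with 0 columns of other samples; the column of AMPK+/+ 3 carries an unexplained suffix, and that of LMX1B+/+ 3 the number 4 of its library name. Gene symbols, overlaps and promoters came from GRCm38 annotation, so no gene coordinates in the files' build are given.

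Counts were tested with edgeR 4.0.16 (R 4.3.3) by its quasi-likelihood test after filterByExpr and TMM, with genotype as the only term, in a fit of 6 AMPK and one of 9 LMX1B libraries, p-values being adjusted by Benjamini and Hochberg's method across every gene tested (threshold 0.05). Log2 CPM used a prior count of 2. On simulated data all 200 changed genes were recovered in each fit. These were drawn from the more abundant genes only and given a log2 change of 2 up or down. Recovery at the low counts that most members had in the AMPK libraries was not tested. Alternatives were DESeq2 1.42.0, other scalings, no filter, a replicate block, other sample sets and leaving out libraries. The members and gene lists were chosen with earlier results of these data known. The genes named were the members, every other choroid plexus gene called, Otx2, Lmx1a, Msx1, Kcne2 and Prlr, the 2 most abundant genes of each marker list where the text describes it (1 of these is not reported here), and the 5 genes most like the members. Slc29a4, the ependymal genes called and the markers at 0 were named after their values were seen.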

Additional observations from a re-analysis of the deposited data

How the results depend on the processing

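The direction of the members' fitted values held in 72 of 72 alternative values in the AMPK comparison; the other sign appeared in 11 of 120 values for LMX1B-/- against LMX1B+/+, 1 of 120 for LMX1B+/- against LMX1B+/+ and 18 of 120 for LMX1B-/- against LMX1B+/-. In the AMPK comparison, leaving out 1 library gave 541 to 2959 genes called in all and 1 to 3 other choroid plexus genes, and always 2 members. DESeq2 called 667 genes, 1 member and 0 of the others, and gave no adjusted p for Kcnj13, Slc13a4 or Slc22a8. Without both shallow libraries 6 genes, 0 members and 0 of the others were called. Without AMPK+/+ 3, 541 genes were called.

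For LMX1B-/- against LMX1B+/+, the genes called in all were 35 by DESeq2, 19 with library size scaling, 13 with only the genotypes compared and 3 to 11 with 1 library left out. Without a filter on low counts 329 genes, 5 members and 13 other choroid plexus genes were called. For LMX1B+/- against LMX1B+/+, members and others called were 2 and 11 with library size scaling, 7 and 20 without a filter and 3 and 11 with only the genotypes compared, and 0 to 5 and 1 to 17 with 1 library left out. Genes called in all were 7873 of 21729 with library size scaling and 8233 of 40964 without a filter. They were 6667 of 21050 with only the genotypes compared and 5911 to 8405 with 1 library left out. For LMX1B-/- against LMX1B+/-, others called were 2 by DESeq2, 2 with library size scaling, 9 without a filter (with 3 members) and 1 to 2 with 1 library left out, and genes called in all were 3500 to 6055. The cause was not tested.

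Scaling by library size alone moved the median of all genes to −0.18 in the AMPK comparison and −0.27 and 0.22 for LMX1B+/- against LMX1B+/+ and LMX1B-/- against LMX1B+/-, with 280 genes higher and 1651 lower (655 and 900 with TMM), 2058 and 5815 (4225 and 3752), and 3737 and 1297 (2500 and 3044).

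Without LMX1B-/- 1, Kcnj13 turned from 0.86 to −0.22 for LMX1B-/- against LMX1B+/+. Without LMX1B+/- 2, LMX1B-/- against LMX1B+/- turned from −0.56 to 0.41 for Aqp1, −0.45 to 0.80 for Clic6, −0.39 to 0.82 for Slc4a5 and −0.31 to 0.43 for Ttr. Of the other genes named, in the AMPK comparison, leaving out 1 library gave −0.099 (without AMPK+/+ 3) to 0.92 for Msx1, −0.078 to 0.20 for Prlr (below 0 without AMPK+/+ 1 or AMPK-/- 1) and −0.35 to 0.033 for Prkaa2 (above 0 without AMPK+/+ 3), and Prlr was −0.041 in DESeq2 and −0.10 with library size scaling. For LMX1B-/- against LMX1B+/+ it gave −0.28 to 0.080 for Lmx1a (above 0 without LMX1B+/+ 1 or LMX1B-/- 3) and −0.13 (without LMX1B-/- 1) to 0.74 for Msx1. For LMX1B+/- against LMX1B+/+ it gave −0.30 (without LMX1B+/- 1) to 0.56 for Lmx1b, which was also below 0 without LMX1B+/+ 3. For LMX1B-/- against LMX1B+/- it gave −0.20 (without LMX1B-/- 1) to 0.46 for Otx2, also below 0 without LMX1B+/- 1 or LMX1B+/- 3.

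Replicate numbers showed no clear pairing of the libraries. Same-numbered libraries correlated at −0.12 to 0.05 in the AMPK and −0.18 to 0.15 in the LMX1B experiment after removing group means. Differently numbered libraries of different groups correlated at −0.096 to 0.12 and −0.12 to 0.24. With 3 libraries in a group, and 2 shallow ones in the AMPK experiment, these values cannot exclude pairing. With the replicate number as a block, 1350 genes were called in the AMPK comparison, and 5, 7243 and 4720 in the LMX1B comparisons in the order above, and of the calls of named genes that of Kcne2 ended. Depth limits the AMPK values of Kcnj13, Folr1 and Aqp1, which rest on few counts.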
